A study of Mus musculus with 12 samples.

Results

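The 10 genes described here run and restrain the step from G1 into S phase in NIH-3T3, a line of immortalised fibroblasts from mouse. They were taken from the deposited table by their symbols, which were Ccnd1, Ccnd2, Ccnd3, Ccne1, Ccne2, Cdk4, Cdk6, Cdkn1b, Cdkn2c and E2f1. All 10 were found among its 17419 genes, and all 10 passed the filter on low counts. Wild-type cells were given 4-thiouridine (4sU), a uridine analogue that is built into RNA made after it is added, at 800 µM for 15, 30, 60, 90 or 120 min. A further group, no4sU, was not given it. All 6 groups came from the same line and each had 2 libraries, A and B, which gave 12 libraries. The RNA of all groups was treated with iodoacetamide, which makes sequencing read the incorporated 4sU as C (SLAM-seq). The new-to-total ratio (NTR), the part of a transcript's pool that was made since labelling began, was estimated by the authors from these conversions. The series title gives the question as the bias that the length of labelling brings to such measurements. The labels do not say that A and B were separate cultures, so the p-values below measure only the spread between these libraries, which may be technical.

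Entry into S phase is controlled by the retinoblastoma protein, which holds E2F transcription factors inactive. D-type cyclins, whose transcription follows growth signals, bind Cdk4 or Cdk6 and phosphorylate the retinoblastoma protein, and the E2F factors released in this way turn on cyclin E and other S phase genes. Cyclin E with Cdk2 then phosphorylates the same protein further. The brakes act on the kinases: the Ink4 protein p18, encoded by Cdkn2c, binds Cdk4 and Cdk6, and p27, encoded by Cdkn1b, inhibits the complexes of cyclin E with Cdk2.

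Library totals were between 9917026 and 13739380 reads, and the mean count of the 10 genes ran from 329 (Ccne2) to 6543 (Cdk4). The no4sU libraries stood apart from each other: the SD of the log2 difference between replicates over genes was 0.205 there and 0.112 to 0.122 in the labelled groups. All 10 fibroblast markers listed were above 1 CPM (counts per 1000000 reads of the library), with a summed level of 16526 to 20305 CPM per library. Of the 3 epithelial markers with an entry, 0 reached a mean of 1 CPM, and their sum was 0 to 1.07 CPM. One marker each of leukocytes (Cd68, 5.50 CPM), endothelium (Cdh5, 1.18 CPM) and muscle (Acta1, between those) did, and the summed levels of these lists reached at most 6.88 CPM in each library. As libraries of cells in bulk, they cannot tell fewer cells of a kind from less RNA per cell.

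AU-rich elements in a 3′ UTR, built around the pentamer AUUUA, are known to bind decay and stabilising proteins. They are shown because the 10 genes differed widely in how quickly their RNA was renewed. The letters ATTTA were searched on the transcript strand of the 3′ UTR of each gene's longest coding transcript in GENCODE M21 (GRCm38), overlapping matches included. For the 3 genes with the highest and the 3 with the lowest NTR at 120 min, given below, the window of 30 bases with the most matches was as follows, read 5′ to 3′ with ATTTA in capitals.

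Ccne2, chr4:11204115-11204144, plus strand: ctcctagaaATTTATTTATTTAaacttgct

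Cdkn1b, chr6:134923277-134923306, plus strand: aggtcctcATTTAttgaaATTTAaaaataa

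Cdk6, chr5:3524435-3524464, plus strand: cttgaATTTAgccccaagtgATTTActaaa

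Ccnd3, chr17:47599333-47599362, plus strand: cgtggtcattttaATTTAttgctttgaata

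Ccnd1, chr7:144932424-144932453, minus strand: tcctttctatctgATTTAagcaaaagagaa

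Cdk4, chr10:127067225-127067254, plus strand: tcttccctccctgATTTAtactgggatctt

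The Ccne2 window holds 3 overlapping copies, which run on from each other. Cdkn1b and Cdk6 hold 2 separate copies in theirs, and Ccnd3, Ccnd1 and Cdk4 hold 1. Over the whole 3′ UTR, Cdk6 had 15 copies, Cdkn1b 10, Ccne2 6, Ccnd1 5, E2f1 3 and Ccnd2 2. Ccnd3, Cdk4 and Cdkn2c had 1 each and Ccne1 had 0. Of the 8919 genes with an annotated 3′ UTR whose counts averaged 100 or more, 72.4% held at least 1 copy, with a median of 2. The number of copies depends on the length of the UTR, and a match is a description of the letters, not a binding site. Uridine itself, the base that 4sU replaces, made up 30.7% of the Ccne2 transcript, 29.8% of Cdkn1b, 29.5% of Cdk6, 27.9% of Ccnd2, 25.0% of Ccnd1 and 24.0% of Cdk4. It made up 23.3% of both E2f1 and Ccne1, 22.2% of Ccnd3 and 20.1% of Cdkn2c, and the median over genes was 24.7%. Ccne2, Cdkn1b and Cdk6 were thus the highest of these genes in uridine, and also in NTR at the longest labelling time, given below. E2f1, Ccne1, Ccnd3 and Cdkn2c lay below Cdk4 in uridine, though their NTR at that time was higher. A relation between uridine and NTR was not tested.

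The level of each gene is given in CPM with trimmed-mean (TMM) library scaling, which is a share of the library and not an amount per cell. To compare genes with each other, the mean CPM was divided by the gene length in the table. On that scale Cdk4 was the most abundant at 279 CPM per kb, followed by Ccnd1 after 126. Ccne1 (32.2), Ccnd3 (31.5), Ccnd2 (31.2), E2f1 (29.9) and Cdkn2c (25.0) lay close together. The deposited length of Ccnd3 was 3858 bases, against 2113 for its longest coding transcript, so its place depends on the length used. Ccne2 (9.59), Cdkn1b (9.04) and Cdk6 (5.81) were the lowest. These 3 low genes are also the 3 with the highest NTR after 120 min, as given below.

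**Figure D1:**
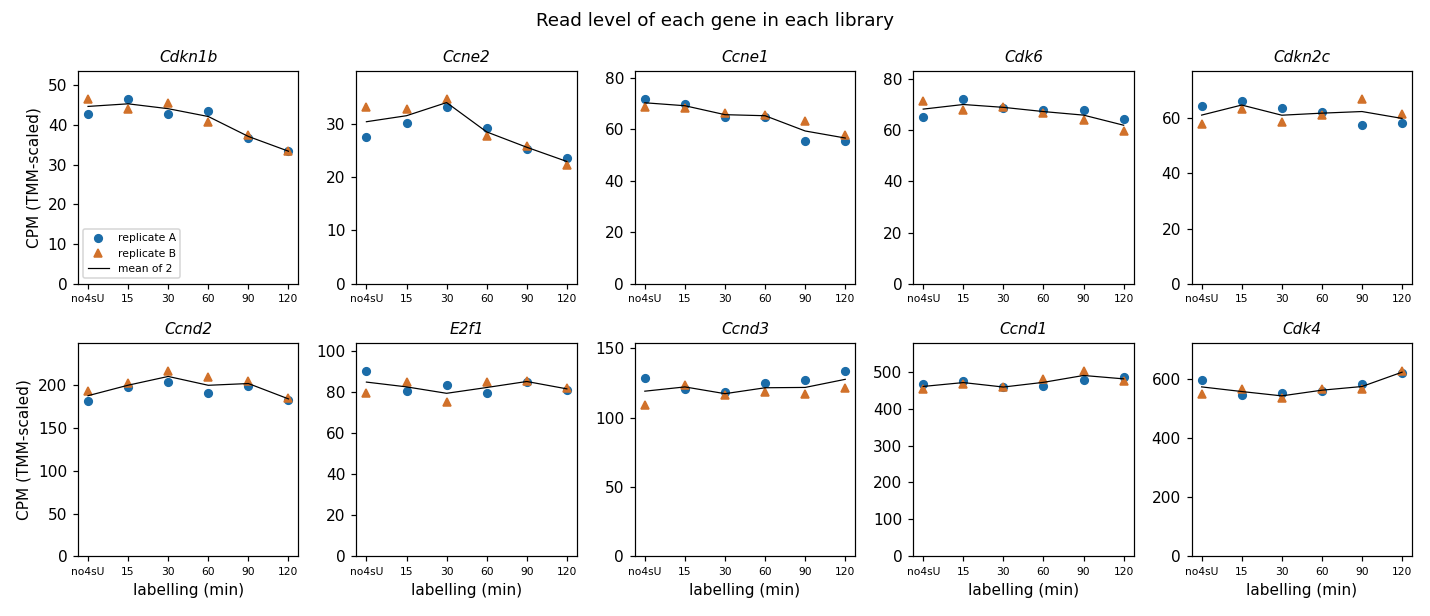
CPM of each gene (y axis, from 0, its own scale per panel) in each library by labelling time in min (x axis), with replicates A and B as separate points and a line through the group means. Cdkn1b, Ccne2 and Ccne1 are lower at 120 min than in both no4sU libraries, Cdk4 is higher, and the points of E2f1 stay between 75.2 and 90.0 CPM.

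Of the 3 D cyclins, which start the step, 0 passed the test at 120 min (an adjusted p below 0.05) by edgeR or by DESeq2, and 0 had an unadjusted p under 0.05. Of all genes tested by edgeR, 14.2% passed against no4sU and 19.3% against 15 min. An unadjusted p under 0.05 was found for 30.5% and 33.4% of them. Ccnd1, the growth-factor-responsive cyclin of fibroblasts (chr7:144929931-144939925, minus strand), had 466 (A) and 454 CPM (B) without 4sU. It had 475 and 466 CPM after 15 min, 458 and 458 after 30, 461 and 481 after 60, 478 and 502 after 90, and 486 and 475 after 120 min. The 120 min libraries lay just above those of no4sU and of 15 min, and all 12 values lay between 454 and 502 CPM. The edgeR quasi-likelihood test gave a log2 fold change at 120 min of 0.06 against no4sU (adjusted p = 0.410) and of 0.03 against 15 min (adjusted p = 0.698).

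Ccnd2 (chr6:127125162-127152193, minus strand), a second D cyclin, had 182 and 194 CPM without 4sU. Its values were 198 and 203 CPM after 15 min, 204 and 217 after 30, 191 and 209 after 60, 199 and 205 after 90, and 183 and 186 after 120 min. They were thus highest at 30 min, while those of 120 min lay below 15 min and inside the no4sU range. The log2 fold change at 120 min was -0.03 against no4sU (edgeR adjusted p = 0.772) and -0.12 against 15 min (adjusted p = 0.161). Ccnd3 (chr17:47505051-47599691, plus strand), the third D cyclin, ranged from 109 to 134 CPM, with the lowest and a high value (129) both in no4sU libraries, and its groups at 120 and 15 min overlapped. Its log2 fold change at 120 min was 0.10 against no4sU (edgeR adjusted p = 0.366) and 0.06 against 15 min (adjusted p = 0.588).

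Of the kinases of these cyclins, Cdk4 rose against 15 min and Cdk6 did not pass the test. Cdk4 (chr10:127063534-127067920, plus strand) had 598 and 550 CPM without 4sU, 548 and 568 after 15 min and 552 and 535 after 30 min. It then had 560 and 565 CPM after 60 min, 583 and 567 after 90 min and 620 and 627 after 120 min, the highest values in the series for this gene. Against 15 min Cdk4 rose by 11.8% after 120 min (log2 0.16 ± 0.0508, SE, edgeR adjusted p = 0.0324). Against no4sU the change was 0.12 (adjusted p = 0.113), and no4sU A lay closer to the 120 min libraries than no4sU B did. The rise was lost when any of the 4 libraries of 120 and 15 min was left out (adjusted p = 0.0832 to 0.230) and with scaling by library size alone (0.10, adjusted p = 0.162).

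Cdk6 (chr5:3341485-3531008, plus strand), the other kinase, had 65.0 and 71.3 CPM without 4sU, 72.3 and 67.6 after 15 min, 68.6 and 69.1 after 30 min, 67.6 and 66.8 after 60 min, 67.7 and 63.9 after 90 min and 64.2 and 59.5 after 120 min. Both libraries of 120 min lay below every one of no4sU and 15 min, A of 120 min by less than 1 CPM. The log2 fold change was -0.15 against no4sU (edgeR adjusted p = 0.171) and -0.18 against 15 min (adjusted p = 0.0834), so that Cdk6 did not pass the test.

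Both E cyclins, the partners of Cdk2 at the start of S phase, fell. Ccne2 (chr4:11191351-11204779, plus strand) had 27.6 and 33.2 CPM without 4sU, 30.2 and 32.8 after 15 min, 33.2 and 34.7 after 30 min and 29.2 and 27.7 after 60 min. It had 25.3 and 25.9 CPM after 90 min and 23.6 and 22.3 after 120 min. All 4 libraries of 90 and 120 min were below the 8 others. At 120 min Ccne2 was 27.3% lower than at 15 min (log2 -0.46 ± 0.0991, SE, edgeR adjusted p = 0.00341) and had a log2 fold change of -0.42 ± 0.0983 against no4sU (adjusted p = 0.00839). The call against no4sU was lost without no4sU B (-0.27, adjusted p = 0.0940) and without 120 min B (-0.38, adjusted p = 0.0998), and that against 15 min without 120 min B (adjusted p = 0.0587).

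Ccne1 (chr7:38097984-38107534, minus strand) had 72.0 and 68.7 CPM without 4sU, 70.1 and 68.3 after 15 min, 65.0 and 66.5 after 30 min, 64.9 and 65.7 after 60 min, 55.6 and 63.2 after 90 min and 55.4 and 57.9 after 120 min. The libraries of 120 min were below all of those up to 60 min, and the pair at 90 min was the widest apart. Its log2 fold change at 120 min was -0.31 ± 0.0707 against no4sU (SE, edgeR adjusted p = 0.00719) and -0.29 ± 0.0713 against 15 min (adjusted p = 0.00866), a fall of 18.1%. It was lost without 120 min A in both comparisons (adjusted p = 0.0918 against no4sU) and without 15 min A in the latter. E2f1 (chr2:154559407-154569892, minus strand), the transcription factor upstream of both E cyclins, stayed between 75.2 and 90.0 CPM, with both ends of that range outside the 120 min group. Its log2 fold change at 120 min was -0.05 against no4sU (adjusted p = 0.661) and -0.02 against 15 min (adjusted p = 0.901).

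Of the 2 brakes, Cdkn1b fell and Cdkn2c did not pass the test. Cdkn1b (chr6:134920401-134925513, plus strand), which encodes p27, had 42.8 and 46.6 CPM without 4sU, 46.7 and 44.0 after 15 min, 42.7 and 45.5 after 30 min and 43.6 and 40.7 after 60 min. It had 36.7 and 37.6 CPM after 90 min and 33.4 and 33.5 after 120 min. The libraries of 90 min lay below all earlier ones, and those of 120 min lower still. At 120 min Cdkn1b was lower by log2 -0.42 ± 0.0803 than without 4sU (SE, edgeR adjusted p = 0.00202) and by -0.44 ± 0.0810 than at 15 min (adjusted p = 0.00113), a fall of 26.3%. It was the only gene of the 10 whose call held in each of the 4 leave-outs of both comparisons. Cdkn2c (chr4:109660876-109667189, minus strand), which encodes p18, ranged from 57.6 to 67.0 CPM with no order in time. Its log2 fold change at 120 min was -0.02 against no4sU (adjusted p = 0.881) and -0.11 against 15 min (adjusted p = 0.349).

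In all, edgeR called 3 of the 10 genes at 120 min against no4sU (Cdkn1b, Ccne2 and Ccne1), all lower, where 14.2% of all 11564 genes tested were called, 5.43% as higher and 8.78% as lower. Against 15 min it called 4 of 10, Cdk4 as higher and the same 3 as lower, where 19.3% of all genes were called, 7.93% higher and 11.3% lower. The median log2 fold change of the 10 genes was -0.04 against no4sU and -0.12 against 15 min, beside 0.01 over all genes in each. The comparisons share the 120 min libraries, so they are not independent of each other. When only the libraries of the 2 groups compared were fitted, 0 of 10 were called against no4sU by edgeR (3 at an unadjusted p under 0.05, Cdkn1b adjusted p = 0.0567, Ccne1 0.102, Ccne2 0.106) and 6 against 15 min, with Ccnd2 and Cdk6 added. Of all genes that fit called 1.5% and 33.6%, and 19.1% had an unadjusted p under 0.05 against no4sU. In another fit the new part of each count was scaled up until fold change and NTR were unrelated over all genes. The share of missing new reads that did this, solved for from these same data, was 31.3% against no4sU and 34.9% against 15 min. For 15 and 30 min against no4sU it came out negative (-17.6% and -1.03%). At 120 min edgeR then called 0 of 10 in both comparisons (1 and 2 at an unadjusted p under 0.05). Of all genes it called 1.62% and 2.09%, and 13.2% and 15% had an unadjusted p under 0.05. The scaling removes the relation to NTR by construction, so calls lost by genes of high NTR cannot tell missing reads from true falls. With that scaling Cdkn1b had log2 fold changes of -0.14 and -0.12, Ccne2 of -0.19 and -0.20, and Ccne1 of -0.24 and -0.21 (adjusted p for Ccne1 0.0919 and 0.131).

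Shorter labelling gave 0 calls among the 10 genes. By edgeR and by DESeq2, 0 passed at 15, 30, 60 or 90 min against no4sU, and 0 passed at 30, 60 or 90 against 15 min. Over all genes edgeR called 0% after 15 and 30 min, 0.0173% after 60 min and 1.39% after 90 min against no4sU, and 0%, 0.0346% and 1.06% after 30, 60 and 90 against 15 min. At an unadjusted p under 0.05, edgeR counted 0, 1, 0 and 3 of the 10 genes against no4sU. The matching shares of all genes were 5.34%, 5.79%, 7.74% and 16.2%. Against 15 min it counted 0, 0 and 3 of the 10, beside 2.15%, 6.19% and 15.6% of all genes. DESeq2 counted 0, 1, 0 and 2 of the 10 and then 0, 0 and 3. Its shares of all genes were 1.44%, 1.7%, 2.44% and 6.5%, and then 0.216%, 1.7% and 5.98%. The genes that later fell already had negative values at 90 min. Cdkn1b was at log2 -0.27 against no4sU (edgeR adjusted p = 0.0963) and -0.29 against 15 min (adjusted p = 0.0869). Ccne1 was at -0.24 (adjusted p = 0.0929) and -0.22 (adjusted p = 0.148), and Ccne2 at -0.26 (adjusted p = 0.204) and -0.30 (adjusted p = 0.154).

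The NTR spread widely over the 10 genes. Cdkn1b was renewed fastest: its NTR in libraries A and B was 7.04 and 2.51% after 15 min, 23.1 and 22.4% after 30, 52.3 and 52.8% after 60, 72.8 and 76.1% after 90, and 92.5 and 93.0% after 120 min. Thus more of the p27 transcript was new than old from 90 min on. At 60 min the authors' 90% intervals (46.0 to 58.9% in A, 46.5 to 59.3% in B) included equal shares of new and old. The replicates differed by more than 1 percentage point only at 15 and 90 min. Ccne2 came next, with 12.8 and 14.4% after 30 min, 34.0 and 35.2% after 60, 58.0 and 72.6% after 90, and 73.2 and 89.1% after 120 min. Its replicates lay far apart at the 2 longest times, B above A.

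Cdk6 and Cdk4, kinases that share their cyclins, lay far apart. The NTR of Cdk6 was 12.5 and 11.8% after 30 min, 34.0 and 36.2% after 60, 50.4 and 43.4% after 90, and 69.1 and 62.4% after 120 min. That of Cdk4 was 3.28 and 2.95% after 30 min, 7.39 and 7.36% after 60, 11.2 and 9.49% after 90, and 15.7 and 13.9% after 120 min, the lowest of the 10 genes at each of these times. At 120 min Cdk4 ranked at percentile 14.7 and 11.7 (A, B) among the 9065 genes whose counts averaged 100 or more, and Cdkn1b at 94.4 and 93.7.

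The E cyclins differed as well. The NTR of Ccne1 was 7.67 and 11.8% after 30 min, 22.8 and 24.0% after 60, 39.7 and 33.1% after 90, and 52.6 and 47.7% after 120 min, below Ccne2 in every library from 30 min on. E2f1 had 11.4 and 12.8% after 60 min and 37.4 and 35.0% after 120 min. Their regulator was thus renewed more slowly than either E cyclin transcript.

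Among the D cyclins Ccnd2 had the highest NTR, with 19.6 and 22.2% after 60 min and 40.9 and 41.8% after 120 min. Ccnd3 had 12.5 and 14.3% after 60 min and 31.3 and 28.5% after 120 min. Ccnd1 had 9.80 and 11.5% after 60 min and 27.0 and 25.6% after 120 min. All 4 libraries of Ccnd2 at these times thus exceeded those of the other D cyclins at the same time. Cdkn2c, the second brake, had 19.1 and 20.6% after 60 min and 51.3 and 40.9% after 120 min, with the wide gap between replicates at the longest time.

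**Figure D2:**
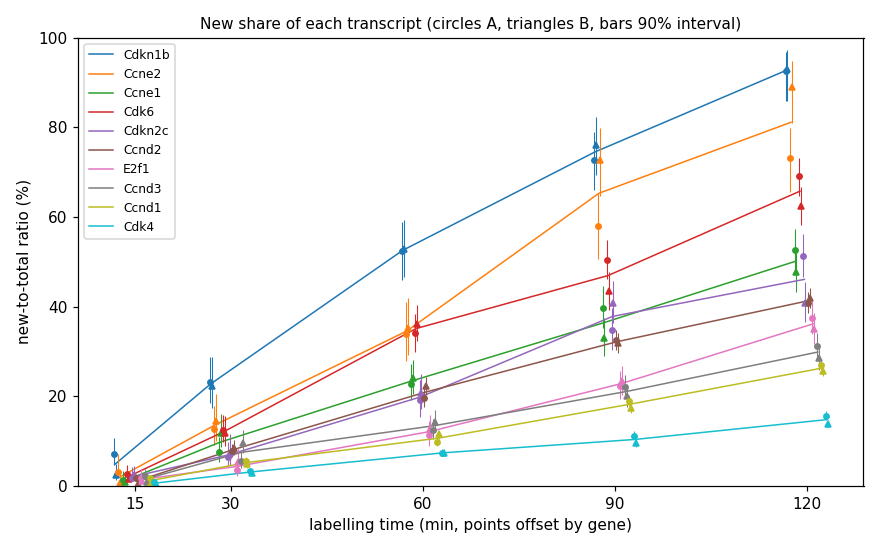
NTR in percent (y axis) against labelling time in min (x axis, points offset by gene) for the 10 genes, with circles for replicate A, triangles for B, lines through the means of 2 libraries and bars for the deposited 90% interval. At 120 min the means run from 14.8% for Cdk4 to 92.8% for Cdkn1b, and the Ccne2 replicates lie apart from 90 min on.

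By the mean at 120 min the order was Cdkn1b (92.8% ± 0.332, SD, n = 2), Ccne2 (81.1% ± 11.3), Cdk6 (65.8% ± 4.72), Ccne1 (50.1% ± 3.43), Cdkn2c (46.1% ± 7.38), Ccnd2 (41.3% ± 0.686), E2f1 (36.2% ± 1.75), Ccnd3 (29.9% ± 1.99), Ccnd1 (26.3% ± 0.948) and Cdk4 (14.8% ± 1.24). The median over the 9065 genes was 35.4% ± 0.523. The order of most neighbours is not settled, since the authors' 90% intervals, taken over both libraries, overlapped for 7 of the 9 neighbouring pairs. They did not overlap between Cdk6 and Ccne1 or between Ccnd1 and Cdk4.

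Reads were split by the NTR into a new part (NTR times CPM) and an old part made before labelling. The old RNA of Cdkn1b was 43.2 ± 0.336 CPM after 15 min (SD, n = 2), 34.1 ± 1.76 after 30, 20.0 ± 1.12 after 60, 9.47 ± 0.710 after 90 and 2.42 ± 0.107 after 120 min. Its new RNA was 3.29 and 1.11 CPM after 15 min and 30.9 and 31.1 CPM after 120 min. Nearly the whole pool had thus been exchanged, and the new part at 120 min was smaller than the old part lost since 15 min.

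The old part left at 120 min, as a share of that at 15 min, was 5.61% for Cdkn1b, 14.2% for Ccne2, 30.8% for Cdk6 and 41.3% for Ccne1. It was 51.0% for Cdkn2c, 54.6% for Ccnd2, 64.0% for E2f1, 74.4% for Ccnd3 and 76.2% for Ccnd1. For Cdk4 it was 95.8%: the old part was 555 ± 16.1 CPM after 15 min and 531 ± 12.3 after 120 min (SD, n = 2), while the new part reached 92.2 ± 6.97 CPM. Between these times the old part of Cdk4 was lowest at 90 min (515 ± 3.02 CPM). These shares are relative to the library, whose makeup also moves.

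**Figure D3:**
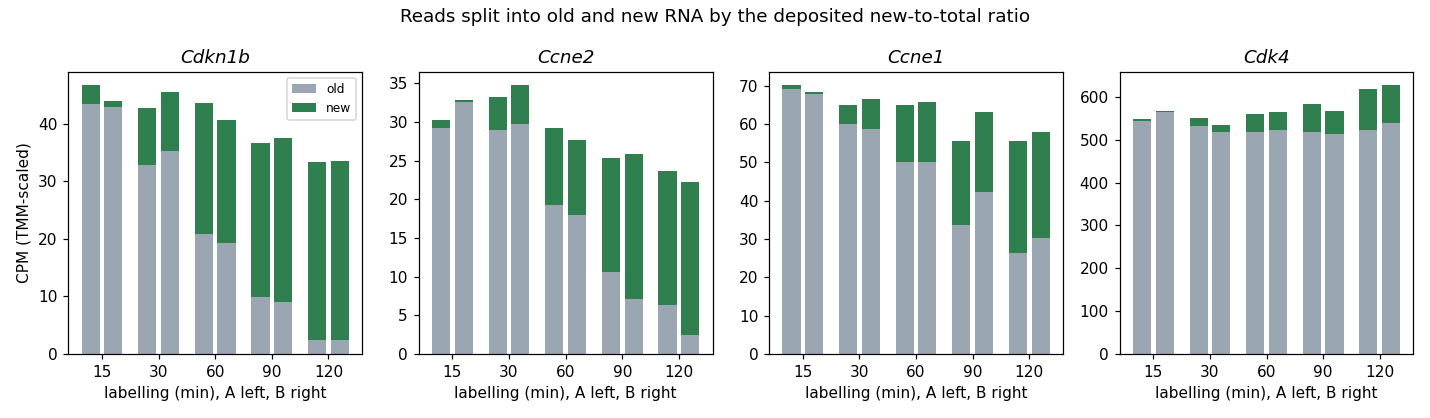
CPM (y axis, own scale per panel, from 0) of 4 genes in each labelled library, split into old (grey) and new (green) RNA by the NTR, with labelling time in min on the x axis and A left of B. The grey part of Cdkn1b falls from 43.2 to 2.42 CPM between 15 and 120 min, while that of Cdk4 goes from 555 CPM at 15 min to 515 at 90 and 531 at 120 min (means of 2).

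With constant levels and constant labelling, an NTR gives a half-life, ln 2 times the labelling time over -ln(1-NTR), that does not depend on the labelling time. In these data it did for most of these genes. For Cdkn1b the apparent half-life was 79.1 and 82.0 min in the 30 min libraries, 55.8 ± 0.535 min at 60 min (SD, n = 2), 45.7 ± 3.08 after 90 min and 32.1 and 31.3 min in the 120 min libraries. For Ccne2 it went from 152 and 133 min at 30 min of labelling to 63.2 and 37.5 min at 120. For Cdk4 it was 624 and 694 min, then 488 and 555 min. The median over all genes went from 368 ± 11.7 min to 198 ± 5.41 min. A half-life of Cdkn1b or Ccne2 is thus tied to the labelling time it came from. That of Cdkn1b differed by more than 2 times between durations. For Ccnd3 it was 287 ± 111 min at 30 min of labelling and 235 ± 18.8 min at 120 (SD, n = 2). Cdk4 and Ccnd3 did not pass the test of such a change given below.

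The apparent turnover rate, -ln(1-NTR) divided by time, was tested on the log2 scale with limma over the libraries of 30 to 120 min. Between 30 and 120 min it rose for 8 of the 10 genes, where 69.8% of all 7840 genes tested were called, 68.5% as higher, and the median change was 0.93 for the 10 genes and 1.06 for all. The largest was that of Ccne2 (1.55 ± 0.294, SE, limma adjusted p = 0.00326), followed by E2f1 (1.36 ± 0.236, adjusted p = 0.00220) and Cdkn1b (1.35 ± 0.147, adjusted p = 0.000423). Cdk4 (0.34, adjusted p = 0.136) and Ccnd3 (0.23, adjusted p = 0.468) did not pass. Between 60 and 120 min 1 of 10 was called, Cdkn1b (0.82 ± 0.147, adjusted p = 0.0294), where 13.8% of all genes were called, 13.6% as higher, and the all-gene median was 0.41. Ccne2 (1.01, adjusted p = 0.0628) and E2f1 (0.80, adjusted p = 0.0646) missed the threshold. When any library of 60, 90 or 120 min was left out, limma called 0% of all genes (19.7% to 30.4% had an unadjusted p under 0.05). The change of Cdkn1b was 0.80 to 0.83 in those fits (adjusted p = 0.0599 to 0.151).

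The genes with the higher NTR had the lower fold changes. Over the 10 genes, Spearman's rho was taken between the mean NTR and the log2 fold change. With the NTR at 60 min it was -0.903 for 120 against 15 min and -0.867 for 120 min against no4sU. With that at 120 min it was -0.952 and -0.927. Over the 9065 genes the relation ran the same way, with a rho between the fold change of the 120 min libraries and their own NTR of -0.733 against 15 min and -0.702 against no4sU. These are descriptions over genes whose values come from the same libraries, and the genes are not independent replicates. Genes of like NTR at 60 min had unlike fold changes, though their NTR at 120 min was less alike for some. Ccne2 (34.6% after 60 min, 81.1% after 120) was at -0.46 against 15 min, and Cdk6 (35.1% and 65.8%) at -0.18. Ccne1 (23.4% and 50.1%) was at -0.29, while Ccnd2 (20.9% and 41.3%) was at -0.12 and Cdkn2c (19.9% and 46.1%) at -0.11. These differences between genes were not tested.

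**Figure D4:**
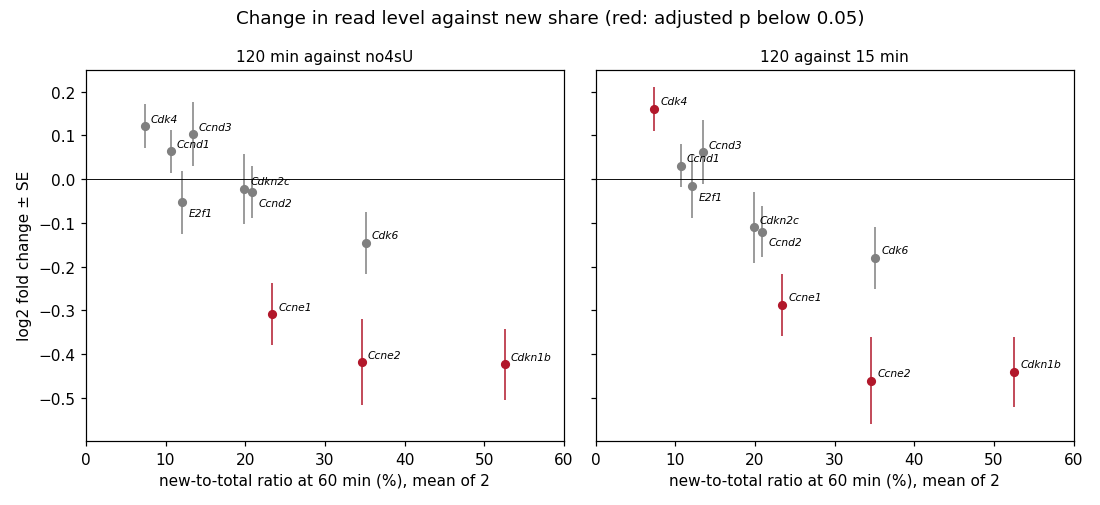
Log2 fold change ± SE (y axis) against the mean NTR at 60 min in percent (x axis) for the 10 genes, at 120 min against no4sU (left) and against 15 min (right), with edgeR calls (adjusted p below 0.05) in red. Points run from Cdk4 at 7.38% with positive values to Cdkn1b at 52.6% with -0.42 and -0.44. Cdk6 lies above Ccne2 at a similar NTR at 60 min.

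For each of the 4 genes called at 120 against 15 min, the genes most like it were found by Pearson's r of log2(CPM + 1) over the 12 libraries, among the same 9065 genes. For Cdkn1b they were Dctn4 (r = 0.978), Ints6l (0.974) and Ythdc1 (0.974). For Ccne2 they were Lmnb1 (0.985), Rasa2 (0.955) and Slf2 (0.954), and for Ccne1 D030056L22Rik (0.949), Plekho2 (0.947) and Kif7 (0.944). For Cdk4 they were Rpl23a (0.973), Rpl19 (0.971) and Ppia (0.970), of which the former 2 encode ribosomal proteins and the last a prolyl isomerase. These 3 had an NTR at 120 min of 9.62%, 11.3% and 8.61%, close to that of Cdk4. Dctn4, Ints6l and Ythdc1 had 67.8%, 67.8% and 71.6%, below Cdkn1b. Lmnb1, Rasa2 and Slf2 had 57.8%, 76.8% and 94.4%, on both sides of Ccne2. D030056L22Rik, Plekho2 and Kif7 had 86.8%, 90.9% and 91.2%, above Ccne1. The r values are the highest of 9065 in each case and describe these 12 libraries.

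Around the 10 genes, a list of 37 others of the step from G1 into S was examined, of which 33 were tested. E2f6 and Cdkn1c were below the filter, and Cdkn2a and Cdkn2b had no entry under these symbols. At 120 against 15 min 1 of 33 rose and 14 fell, where 7.93% of all genes were called higher and 11.3% lower. At 120 min against no4sU 1 rose and 10 fell, where 5.43% were called higher and 8.78% lower. The median log2 fold change of the list was -0.23 in both, beside 0.01 over all genes. The counts depended on single libraries: against no4sU they ran from 3 without 120 min B (3.99% of all genes) and 6 without 120 min A (3.87%) to 16 without no4sU A (30.2%), and against 15 min from 6 to 12 (5.62% to 8.86%). With the new part of the counts scaled up as above they were 2 and 3 (1.62% and 2.09%), with only the 2 groups in the fit 2 and 20 (1.5% and 33.6%), and by DESeq2 7 and 8 (6.2% and 8.51%).

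The one that rose was Cdkn1a, which encodes the Cdk inhibitor p21, a relative of p27. Its level was 115 ± 2.91 CPM after 15 min (SD, n = 2), 98.8 ± 3.31 after 60 min and 143 ± 4.94 after 120 min. The dip at 60 against 15 min was called by edgeR only when just those 2 groups were fitted. At 120 min its log2 fold changes were 0.32 ± 0.0633 against 15 min (edgeR adjusted p = 0.00193) and 0.33 ± 0.0631 against no4sU (adjusted p = 0.00205). Among the 14 genes of the list that fell against 15 min, the NTR at 120 min ran from 36.2% (Rbl1) to 98.3% (E2f8). The NTR of Cdkn1a at 120 min was 96.5%, above that of Cdkn1b, while the level of Cdkn1a was higher and not lower. A relation between NTR and direction in this list was not tested. Both calls of Cdkn1a held in every leave-out.

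Among the falls that held in every leave-out against 15 min were those of Cdc25a, the phosphatase that activates Cdk2, and of Lin9, a core subunit of the DREAM and MuvB complexes that control cell cycle genes. Cdc25a went from 75.3 ± 1.74 CPM after 15 min to 48.1 ± 4.16 after 120 min (SD, n = 2), a log2 fold change of -0.65 ± 0.0721. Lin9 went from 25.4 ± 1.32 to 16.5 ± 0.323 CPM, a log2 fold change of -0.62 ± 0.0966. Both passed against no4sU too, and there also held in every leave-out. Foxo1, a transcription factor that activates Cdkn1b, had -0.66 ± 0.168 against 15 min (edgeR adjusted p = 0.0102) from 7.67 CPM, the deepest fall of the list in that comparison, and -0.43 against no4sU (adjusted p = 0.0903). Its call was lost without 15 min B and without 120 min B (adjusted p up to 0.108).

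Of the E2F family, E2f3 (-0.48), E2f5 (-0.41), E2f7 (-0.34) and E2f8 (-0.42) fell against 15 min, while E2f2 (-0.60, adjusted p = 0.0690) and E2f4 (-0.01, adjusted p = 0.951) did not pass by edgeR. E2f7 and E2f8 are repressors of the family. The E2F partners Tfdp1 and Tfdp2 did not pass, and of the pocket proteins only Rbl1 did (-0.21, adjusted p = 0.0422), from 58.0 to 50.2 CPM, with 0.01 against no4sU (adjusted p = 0.958). The Rbl1 call was lost in all 4 leave-outs (adjusted p = 0.138 to 0.189), those of E2f5 and E2f7 in 2 each (without 15 min A and without 120 min B), and those of E2f3 and E2f8 in 0. Cdk2 (-0.23) and Ccna2 (-0.28), the kinase and its S phase cyclin, fell as well, as did Cdk7 (-0.31), a kinase that activates other Cdks. Of these calls against 15 min, that of Ccna2 held in every leave-out, that of Cdk2 was lost in 3 of 4 (adjusted p up to 0.335) and that of Cdk7 in all 4 (0.0732 to 0.148).

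Among the genes for protein removal, Skp2, which targets p27 for degradation, fell against 15 min (-0.23, edgeR adjusted p = 0.0417), and so did Ambra1 (-0.24, adjusted p = 0.0340), which targets D cyclins. Both calls were lost in all 4 leave-outs (adjusted p = 0.115 to 0.212 for Skp2 and 0.0920 to 0.203 for Ambra1), and Ambra1 did not pass against no4sU (adjusted p = 0.172). Lin54 (-0.48), the DNA-binding subunit of MuvB, fell against 15 min, a call lost without 15 min B and without 120 min B (adjusted p up to 0.0587), and Lin52 passed only against no4sU (-0.54, adjusted p = 0.0184, against -0.42 and 0.0535 after 15 min). That difference between references was not tested. Against no4sU the 10 that fell were Cdc25a, Lin9, Lin52, E2f5, Lin54, E2f7, Cdk7, Cdk2, Skp2 and Ccna2, of which the calls of Cdc25a and Lin9 alone held in every leave-out.

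**Figure D5:**
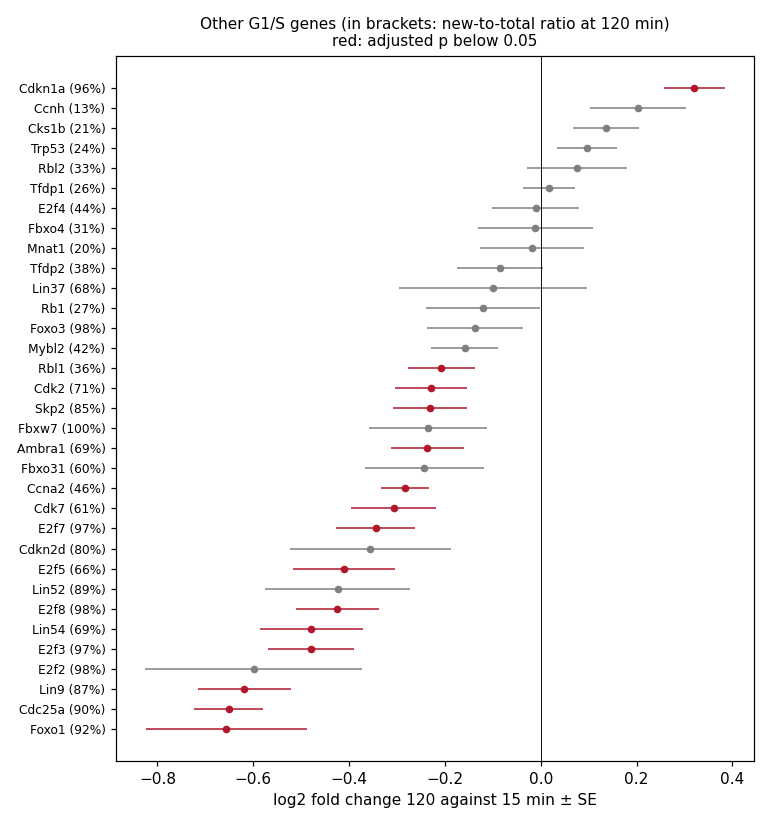
Log2 fold change at 120 against 15 min ± SE (x axis) of the 33 other G1 and S phase genes tested, one per line with its NTR at 120 min in brackets, and edgeR calls (adjusted p below 0.05) in red. Cdkn1a is the only call above 0, 14 calls lie below 0, and Cdc25a, Foxo1 and Lin9 are the lowest of these.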

How the data were processed

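RNA of 12 libraries was measured by SLAM-seq. The submitters' processing notes name cutadapt, Bowtie2 2.3.0 and STAR 2.7.10b. The build, the counting tool and its use of strand were not given in the sources used here. Estimated counts per gene, not scaled between libraries, form the table that the authors deposited. Of these, 20.4% were not whole (tolerance 1e-06), and rounding to whole numbers came first. The authors gave the NTR as a fraction from 0 to 1, per the file headers in the form of a posterior maximum (used here), a mean, and 0.05 and 0.95 quantiles that bound 90%. Alpha and beta, deposited as scores of its distribution, were left aside. The deposited gene length (per the file headers, unit bases) matched the longest coding transcript of GENCODE M21 for 9 of the 10 genes, all but Ccnd3.

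Samples were grouped by their titles. All 12 libraries were fitted together with edgeR 4.0.16 in R 4.3.3 (filterByExpr, 11564 genes, TMM factors 0.970 to 1.02, quasi-likelihood test, no covariate), so the groups shared an estimate of spread, with Benjamini-Hochberg adjustment over all genes and a threshold of 0.05. The SE is the absolute log2 fold change over the square root of F. Apparent turnover rates were tested with limma 3.58.1 for genes whose counts averaged 100 or more, with an NTR of 0.01 to 0.99 in the 8 libraries of 30 to 120 min. DESeq2 1.42.0, other scalings, filters and leave-outs were alternatives. Python 3.11.15 was used. All members of the list were named, as were genes of the wider list past the threshold at 120 min and the 3 genes most like each called member. The members and lists were chosen with earlier results of these data known. Locations are from GRCm38 and are counted from 1. Reads rich in conversions may be lost in alignment, and with them counts and NTR. Errors given cover the 2 libraries only.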

Additional observations from a re-analysis of the deposited data

How the results depend on the processing

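Each list count was recomputed with DESeq2, with RLE and library-size scaling, without the filter, with only the groups compared, with the new part of counts scaled up, with the replicate letter as a block and without each library in turn. For the fold changes of the 10 genes, 245 alternative values kept direction and side of the threshold, 21 lost the call, 19 gained one and 11 reversed. At 120 min the number of the 10 genes called was 0 against no4sU with only the 2 groups (1.5% of all genes), 0 with the new part scaled up (1.62%), and 2 (without no4sU B, 16.2% of all genes) to 6 (without no4sU A, 30.2%, which added Ccnd3 at 0.22, Cdk4 at 0.18 and Cdk6 at -0.21) with a library left out. Against 15 min it was 0 with the new part scaled up (2.09% of all genes) and 2 to 3 with a library left out (5.62% to 8.86%). A linear trend over the labelled libraries, chosen after seeing the data, called 6 and 37.8% of all genes, with Ccnd2 (-0.13) and Cdk6 (-0.17) added. At 90 min 2 were called against no4sU with library-size scaling (2.46% of all genes). Against 15 min 1 was called with library-size scaling (3.02%) and 3 with only the 2 groups (9.6%). At 30 min against no4sU the range without a library was 0 to 2, the latter (Ccnd2 and Cdk4) without no4sU B (11.7% of all genes). For the turnover rate from 60 to 120 min 2 were called with only the 2 durations (25.4% of all genes) and 0 to 3 without a library (0% to 32.3%), and from 30 to 120 min 5 to 8 (51.6% to 70.6%). The cause of these shifts was not tested.

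Some values reversed, among them that of Skp2, which was called against 15 min. With the new part scaled up, log2 fold changes against no4sU were -0.014 for Cdk4, 0.022 for Cdkn2c, 0.044 for E2f3, 0.066 for E2f8 and 0.014 for Ambra1, and against 15 min -0.045 for Ccnd1 and 0.040 for Skp2. Library-size scaling gave -0.027 for Ccnd1 against 15 min and -0.059 for Rbl1 against no4sU, and the linear trend 0.025 for E2f1. Leaving out a library moved Ccnd2 from -0.073 to 0.017, Ccnd3 from -0.016 to 0.22, Cdkn2c from -0.10 to 0.054, E2f1 from -0.15 to 0.037 and Rbl1 from -0.041 to 0.063 against no4sU, and E2f1 from -0.054 to 0.021 against 15 min. The rate change of Cdk4 from 60 to 120 min ran from -0.033 to 0.15, and that of Ccnd3 from 30 to 120 min from -0.17 to 0.64.

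The letters A and B did not pair the samples: the correlation of their deviations over the 15 pairs of groups ran from -0.13 to 0.15 and was above 0.1 in 3. With the letter as a block, 3 genes were called at 120 min against no4sU (15% of all genes). Against 15 min 4 were called (20%), and 0 were in each of the shorter comparisons (0% to 1.58%). For the rate 1 was called from 60 min (5.45% of all genes) and 7 from 30 min (69%), where Ccnd1 was lost. The precision of the NTR differed between genes: the 90% interval of Ccne2 at 120 min reached from 65.6 to 94.8% over both libraries, and that of Cdk4 from 13.1 to 16.6%.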
